A study of Mus musculus with 13 samples.

Results

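Tbx1, Tbx2, Tbx3 and Tbx18 are 4 genes for T-box transcription factors, and they were followed here through mouse heart development in single-cell RNA sequencing of E8.5 and E10.5 embryos and of hearts from E12.5 to P3. The 4 genes were chosen by symbol among the 27998 genes of the count matrices. All barcodes with at least 2000 unique molecular identifiers (UMIs, tags that count each captured transcript 1 time) were kept as cells. This gave 80741 barcodes in 10 matrices, of which 19762 held a UMI of at least 1 of the 4 genes. Tbx18 was seen in 10649 barcodes, Tbx3 in 6205, Tbx2 in 4056 and Tbx1 in 2470.

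The animals were wild-type C57Bl/6J mice without any transgene or treatment, and the series was made to follow the development of the cardiac conduction system. E10.5, E12.5, E14.5 and E16.5 had 2 libraries each, and the design text calls the 2 libraries of a period biological replicates without saying which animals entered which library. E8.5 is represented by replicate 2, since replicate 1 was not analysed here, and P3 by 1 matrix that pools its libraries, so that both stages are described by values and enter no test. Head and limbs had been taken off the E8.5 and E10.5 embryos but the trunk was left, and these cells are therefore not heart cells alone. A step from E10.5 to E12.5 is also a step from embryo to heart, and the 2 cannot be told apart.

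T-box factors share a DNA-binding domain, the T-box, that recognises a short core sequence. In the embryonic heart, Tbx5 and Tbx20 act in the working muscle of the chambers, while Tbx2 and Tbx3 are known as repressors of the chamber programme in the atrioventricular canal, the outflow tract and, for Tbx3, the sinus node. Tbx18 is known for the epicardium, the sheet of mesothelial cells around the heart, and for the muscle of the sinus horns. Tbx1 is known for the pharyngeal arches, the outflow tract, the inner ear and, later, lymphatic vessels.

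The 4 genes are protein-coding genes of the mouse build GRCm38 (mm10). Tbx1 (ENSMUSG00000009097) lies at chr16:18580979-18590671 on the minus strand, Tbx2 (ENSMUSG00000000093) at chr11:85832551-85841948 on the plus strand, Tbx3 (ENSMUSG00000018604) at chr5:119670669-119684724 on the plus strand and Tbx18 (ENSMUSG00000032419) at chr9:87702800-87731260 on the minus strand. The antisense gene Tbx3os1 (chr5:119570130-119671365, minus strand) runs over the start of Tbx3, so telling reads there apart needs strand. The paper lists reads mapped antisense to genes on their own and names default Cell Ranger parameters. Tbx5 lies on the same chromosome as Tbx3, at chr5:119832668-119885219.

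One promoter is printed because its gene was lower with Tbx2 and with Tbx3 in the E10.5 heart muscle cells described further on. Nppa, the gene of atrial natriuretic peptide and a standard chamber muscle gene, starts at chr4:148000722 on the plus strand. The 250 bases before it (chr4:148000472-148000721, plus strand, RefSeq sequence of GRCm38.p6) are shown 5′ to 3′ in lower case, with the T-box core GGTGTGA, present here on the opposite strand, in capitals.
Nppa promoter: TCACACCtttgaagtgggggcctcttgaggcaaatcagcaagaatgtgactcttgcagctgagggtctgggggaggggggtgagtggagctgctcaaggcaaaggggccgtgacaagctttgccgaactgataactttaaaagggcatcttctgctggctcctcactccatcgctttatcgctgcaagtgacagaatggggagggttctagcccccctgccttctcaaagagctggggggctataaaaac
Searched on both strands, the 7 letters were found in 1095 of 32851 promoter windows of this length (3.33%). Of the 12 chamber genes described below, 9 had a window, and 1 of their 10 windows held them, that of Nppa. Of the 18 atrioventricular canal and node genes, 13 had a window, and 0 of their 15 windows held them. A match is a description of these letters and not a binding site.

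Cells were sorted into classes by gates on 5 genes. The Tnnt2 class (cardiac troponin T) needed 20 UMIs in 10000, the Col1a1 class (collagen) 5 in 10000 and at least 2 UMIs, and the Cdh5 (endothelial cadherin), Upk3b (a mesothelial uroplakin) and Epcam (an epithelial adhesion molecule) classes at least 2 UMIs. Barcodes with 30% or more globin UMIs formed an erythroid class first, barcodes that passed no gate formed an ungated class, and barcodes that passed several were left out, apart from Upk3b with Col1a1, which stayed in the Upk3b class. Levels are given as CPM, the UMIs of a gene per 1000000 UMIs of the class in a library. In such sums, fewer cells with the gene and less RNA per cell cannot be told apart, and the shares of barcodes are given beside them for that reason.

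The gated classes held the markers of their names, but not those alone. Summed over 10 matrices each, the 8 cardiomyocyte markers reached 24190.5 to 38622.6 CPM in the Tnnt2 class, the 6 endothelial markers 1295 to 2782 in the Cdh5 class, the 6 mesenchymal markers 2332 to 15498 in the Col1a1 class and the 6 mesothelial markers 158 to 4237 in the Upk3b class. The Upk3b class also held mesenchymal markers at a median of 2752 CPM (489 to 11500.2) and cardiomyocyte markers at 1708, above the median of 900 for its own markers. The 6 epithelial markers reached 757 to 1072 CPM in the Epcam class of the 3 embryo matrices, and hearts had at most 1 Epcam barcode. The ungated class is a mixture. In the hearts it also held cardiomyocyte and macrophage RNA, and at E16.5 its median mitochondrial share was 85.6 and 83.6%, with median UMIs of 3994.5 and 3539. The Tnnt2 class of P3 had a median mitochondrial share of 22.1%. Under the mitochondrial ceiling of the study, 2560 of its 6997 barcodes would be left, and the P3 muscle values given here use all of them, high shares included. Total UMIs per matrix ran from 67141166 to 259041468, and median UMIs per barcode from 10268 to 24516. Library pairs shared 27 to 264 barcode sequences, 0.548 to 2.42% of the smaller library.

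Erythroid cells, which should lack these genes, set the background of a share. A UMI of Tbx1 was seen in 0 to 1.37% of them, of Tbx18 in 0 to 3.09%, of Tbx2 in 0 to 4.11% and of Tbx3 in 0 to 2.74%, at up to 1.81 CPM and at median depths of 9076 to 30628 UMIs. The other classes had median depths of 3539 to 31468.5 UMIs. Barcodes of 1 to 100 UMIs in the hearts of E12.5 to E16.5, which stand for free RNA, held 13.5 to 21.7 CPM of Tbx18, 0.507 to 3.26 of Tbx2, 1.01 to 4.27 of Tbx3 and 0 to 0.372 of Tbx1. In the E10.5 embryos such barcodes held 5.30 and 9.04 CPM of Tbx18, 8.33 and 7.29 of Tbx2, 10.6 and 9.33 of Tbx3 and 7.82 and 9.33 of Tbx1, and at E8.5 3.09, 1.20, 2.58 and 8.07 CPM in that order. Erythroid cells of the E10.5 libraries stood at 0 to 1.51 CPM for all 4 genes.

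**Figure D1:**
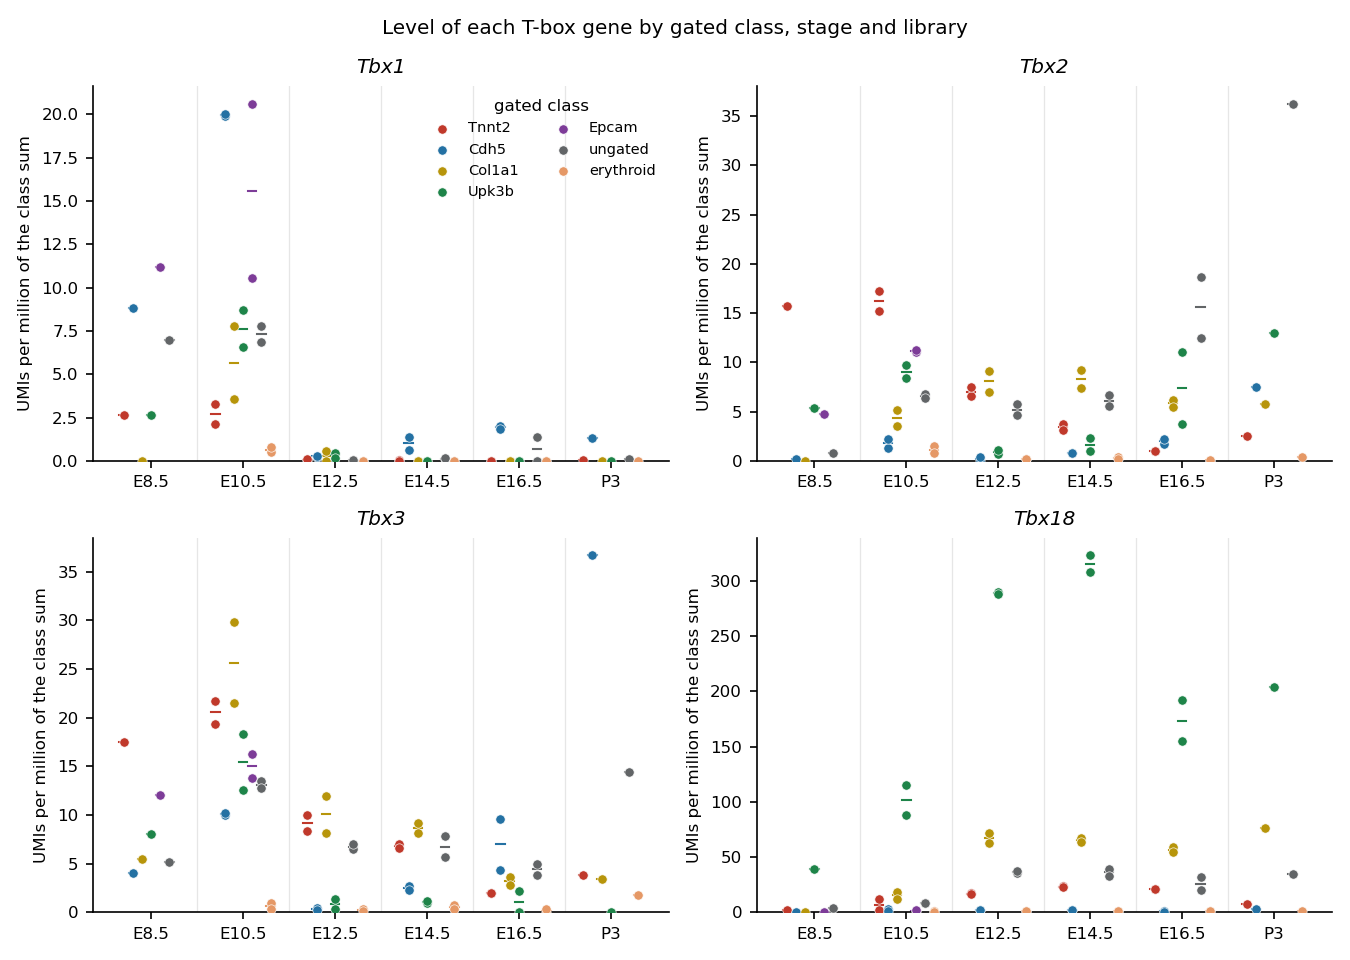
Levels of Tbx1, Tbx2, Tbx3 and Tbx18 (CPM, vertical axis) by stage and cell class, 1 panel per gene; each point is 1 library and the tick is the mean of a stage. Tbx18 was high in the Upk3b class from E12.5 on (155 to 323 CPM), Tbx1 was seen mainly in E8.5 and E10.5 embryos, and Tbx3 in the Cdh5 class went from 0.437 and 0.259 CPM at E12.5 to 36.7 CPM at P3.

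Tbx18 was the mesothelial member of the group. In the Upk3b class its level was 39.3 CPM at E8.5, 116 and 88.5 in the E10.5 embryos, 290 and 288 in E12.5 hearts, 308 and 323 in E14.5 hearts, 192 and 155 in E16.5 hearts and 204 at P3. The hearts of E12.5 and E14.5 were the highest and the E8.5 library the lowest, while E12.5 and E14.5 did not differ beyond the test (log2 0.04, adjusted p = 0.925) and E16.5 and P3 lay between those and E10.5. A Tbx18 UMI was seen in 10 of 38 such barcodes at E8.5, in 37.1 and 31.8% of those of E10.5, in 75 to 87.1% from E12.5 to E16.5 and in 17 of 22 at P3. The 2 barcode suffixes of the P3 matrix gave 111 and 326 CPM, from 12 and 10 barcodes. Each class was set against the mean of the other classes of its stage with edgeR's quasi-likelihood test, here and below with Benjamini-Hochberg adjustment over 14993 genes. The log2 difference for Upk3b was 4.59 ± 0.15 (SE, adjusted p = 5.75e-26) at E10.5, 4.14 ± 0.08 at E12.5, 4.04 ± 0.13 at E14.5 and 3.30 ± 0.17 (adjusted p = 1.55e-19) at E16.5. Of all genes, 13.3, 22, 15 and 14.9% were higher in this class at these stages. Within the class, Tbx18 rose by 1.59 ± 0.13 on the log2 scale from E10.5 to E12.5 (edgeR, adjusted p = 1.94e-13), where 21.6% of all genes rose, and fell by 0.75 ± 0.17 from E14.5 to E16.5 (adjusted p = 0.00227), where 1.8% fell.

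The Col1a1 class, which holds fibroblasts and cushion mesenchyme, was next in the order of Tbx18 levels in the hearts. It stood at 18.2 and 12.51 CPM at E10.5, 62.5 and 71.4 in E12.5 hearts, 66.9 and 63.5 at E14.5, 58.9 and 54.8 in E16.5 hearts and 76 at P3, with 0 of 21 barcodes at E8.5. From E12.5 on these values were close together, and no step between heart stages passed the edgeR test (adjusted p = 0.838, 0.906 and 0.954). Against the other classes, the log2 difference was 1.43 ± 0.12 at E12.5 (adjusted p = 2.32e-13), 1.19 ± 0.13 at E14.5 and 1.42 ± 0.13 at E16.5 (adjusted p = 2.08e-12), while 18.2, 19.1 and 23.7% of all genes were higher in this class. At E10.5 the value of 1.43 ± 0.49 (adjusted p = 0.0375; 9.11% of genes higher) turned to -0.32 with doubled gates.

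Among Tnnt2 cells, Tbx18 was seen in 18.3 and 16.1% of barcodes in E12.5 hearts, 20.4 and 17.8% at E14.5, 21.7 and 17.9% in E16.5 hearts and 9.13% at P3. Its levels of 17.4 and 16.4, 23.5 and 22.8, 21.3 and 21.3, and 7.53 CPM lay, up to E16.5, within or a little above the range of free RNA in the hearts of those stages. The P3 value was below that range, but the P3 matrix held no barcodes of 1 to 100 UMIs and so has no free RNA value of its own. From E12.5 to E16.5 the levels rose by 0.50 ± 0.12 (log2, edgeR, adjusted p = 3.62e-04), in a contrast where 26.4% of all genes rose. In the Cdh5 class Tbx18 was seen in 0.595 to 4.04% of barcodes from E10.5 to E16.5 and in 7.13% at P3, beside an erythroid range of 0 to 3.09%, and it was lower there than in the other classes at each tested stage, from -1.61 ± 0.45 at E10.5 to -5.60 ± 0.31 at E16.5 (log2). Of all genes, 18.6, 25.9, 22.4 and 22.8% were lower in this class at the 4 stages. The E10.5 call was lost without replicate 1 (-0.68).

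Tbx2 was raised in heart muscle in the early stages, but not in muscle alone. At E8.5, 26 of the 157 barcodes with Tbx2 were in the Tnnt2 class, and at E10.5 12 of 983 and 11 of 962. The Epcam class at E10.5 and the Col1a1 class at E12.5 were also above the other classes, as given below. In the Tnnt2 class it was seen in 26 of 108 barcodes at E8.5 (15.8 CPM) and in 17.6 and 15.9% at E10.5 (17.2 and 15.2 CPM). The share then went to 8.25 and 7.69% in E12.5 hearts (6.55 and 7.46 CPM), 4.19 and 3.03% at E14.5 (3.77 and 3.16 CPM), 1.51 and 1.07% in E16.5 hearts (0.985 and 1.03 CPM) and 2.97% at P3 (2.5 CPM). The E16.5 and P3 shares lie within the erythroid range over all stages, which reaches 4.11% at E10.5, while erythroid barcodes of the E16.5 libraries held Tbx2 in 0 and 0.143% and those of P3 in 0.395%. No 2 successive tested stages overlapped. Each step passed the edgeR test: Tbx2 fell by 1.07 ± 0.30 (log2, adjusted p = 0.00869) from E10.5 to E12.5, by 1.03 ± 0.13 (adjusted p = 1.36e-07) to E14.5 and by 1.61 ± 0.17 (adjusted p = 1.12e-09) to E16.5, or by 2.63 ± 0.16 (adjusted p = 1.94e-17) from E12.5 to E16.5. Of all genes, 9.16, 13.2, 15.8 and 25.4% fell in these 4 contrasts. The E10.5 step was lost without either E10.5 library (-0.98 and -1.14).

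The place of Tbx2 among the classes moved accordingly. The Tnnt2 class was above the others by 1.76 ± 0.34 at E10.5 (log2, edgeR, adjusted p = 5.46e-05; 19.2% of genes higher) and by 2.20 ± 0.17 at E12.5 (adjusted p = 4.61e-15; 37.5%). At E14.5 the difference was 0.37 ± 0.24 (adjusted p = 0.207), and at E16.5 it was -1.77 ± 0.55 (adjusted p = 0.00538; 23.8% lower), a value that became -0.11 without E16.5 replicate 2. The Col1a1 class kept 5.46 to 9.22 CPM through the heart stages, with no step that passed, and P3 gave 5.82 CPM. It was above the other classes by 1.93 ± 0.28 at E12.5 (adjusted p = 2.26e-07), 1.42 ± 0.27 at E14.5 and 0.94 ± 0.30 at E16.5 (adjusted p = 0.0086), the last at 2.74 without E16.5 replicate 2.

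In the ungated class of the hearts, Tbx2 rose from E12.5 to E16.5, where it fell in heart muscle. It stood at 4.67 and 5.77 CPM in E12.5 hearts, 5.52 and 6.66 at E14.5, 12.498 and 18.7 in E16.5 hearts and 36.2 at P3, where 20.2% of barcodes held it. The P3 value was 28.9 CPM (14.98%) under barcode suffix 1 and 48.3 CPM (29.47%) under suffix 2. The E16.5 values were above all earlier ones, and the rise from E12.5 was 2.00 ± 0.18 (log2, edgeR, adjusted p = 2.53e-12; 23.1% of genes rose). With the mitochondrial ceilings of the study it was 2.21, and with doubled gates 0.78. At E16.5 the class stood 3.01 ± 0.22 above the others (adjusted p = 8.05e-15; 18.7% of genes higher), from 2.00 with doubled gates to 4.54 without the 5% of barcodes with the most UMIs. The barcodes that carry it are described below by their pericyte genes.

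The Epcam class of the E10.5 embryos held Tbx2 at 11.1 and 11.2 CPM (9.3 and 10.6% of barcodes), beside 8.33 and 7.29 CPM in free RNA, and was above the others by 1.00 ± 0.17 (log2, edgeR, adjusted p = 5.78e-06; 25% of genes higher), after 4.74 CPM at E8.5. In the Cdh5 class, Tbx2 was seen in 2 and 6 barcodes at E12.5 and in 2.54 and 2.38% at E16.5, a rise of 2.81 ± 0.52 (adjusted p = 2.68e-05; 17.1% of genes rose), and then in 12.9% at P3. These E16.5 shares are within the erythroid range for Tbx2. The P3 share was 8.46% under barcode suffix 1 and 18.85% under suffix 2, and pericyte genes were higher in these P3 barcodes, as given below.

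In heart muscle, Tbx3 fell at the same steps as Tbx2. In the Tnnt2 class it was seen in 25 of 108 barcodes at E8.5 (17.5 CPM), in 17.6 and 15.9% at E10.5 (19.3 and 21.7 CPM), 7.84 and 8.4% in E12.5 hearts (8.32 and 10 CPM), 5.3 and 4.82% at E14.5 (7.03 and 6.63 CPM), 2.57 and 1.66% in E16.5 hearts (1.97 and 1.97 CPM) and 3.93% at P3 (3.89 CPM). The P3 value was 5.30% (4.51 CPM) under barcode suffix 1 and 1.95% (2.29 CPM) under suffix 2. The E16.5 shares lie within the erythroid range over all stages, which reaches 2.74% at E10.5, against 0 and 0.286% in the erythroid barcodes of E16.5. Again the tested stages did not overlap. Tbx3 fell by 1.03 ± 0.32 from E10.5 to E12.5 (log2, edgeR, adjusted p = 0.0173), by 0.45 ± 0.13 to E14.5 (adjusted p = 0.00948) and by 1.60 ± 0.16 to E16.5 (adjusted p = 1.59e-10). From E12.5 to E16.5 it fell by 2.05 ± 0.15 (adjusted p = 1.32e-14). The E10.5 and E14.5 steps did not pass without 1 of several libraries: -1.11 and -0.93 without an E10.5 replicate, and -0.33, -0.49 and -0.41 without E12.5 replicate 2 or an E14.5 replicate. The Tnnt2 class was above the others by 2.34 ± 0.19 at E12.5 (adjusted p = 1.9e-14) and 0.88 ± 0.25 at E14.5 (adjusted p = 0.00241; 34.8% of genes higher), and at E16.5 the difference was -0.33 (adjusted p = 0.628). Muscle was not alone in this. The Col1a1 class was above the others by 1.97 at E12.5 (18.2% of genes higher) and by 0.89 at E14.5 (19.1%). The E14.5 value turned sign with doubled gates. The ungated class was above the others by 1.54 at E12.5 (23.2% of genes higher).

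Endothelial Tbx3, in the Cdh5 class, was at 10 and 10.2 CPM in the E10.5 embryos (17 and 15.8% of barcodes). Free RNA had a like 10.6 and 9.33 CPM and erythroid cells 1.01 and 0.398 CPM, and the class did not pass against the others (log2 -0.15, adjusted p = 0.698). It was then nearly absent from E12.5 hearts, where 6 of 750 and 5 of 916 barcodes held it (0.437 and 0.259 CPM). It stood at 2.76 and 2.25 CPM in E14.5 hearts, 4.36 and 9.63 in E16.5 hearts and 36.7 at P3, where 214 of 575 barcodes (37.2%, exact binomial 95% interval 33.3 to 41.3, counting error only) held a UMI. Thinned to 2000 UMIs per barcode, the P3 share was 5.22%. From E12.5 to E16.5 Tbx3 rose by 4.15 ± 0.41 (log2, edgeR, adjusted p = 1.18e-10; 17.1% of genes rose), and by 2.78 ± 0.50 (adjusted p = 3.54e-05; 12.7% rose) in the step to E14.5. The step from E14.5 to E16.5 was 1.37 ± 0.33 (adjusted p = 0.00345; 7.12% rose) and was not called without E16.5 replicate 2 (0.79) or E14.5 replicate 2 (1.25). Both suffixes of the P3 matrix held Tbx3, in 33.84 and 41.80% of the Cdh5 barcodes. Tbx2 had also risen in this class from E12.5 to E16.5, and whether the 2 genes differ there was not tested.

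Against the other classes, the Cdh5 class was below by 3.42 ± 0.48 at E12.5 (a log2 difference of -3.42, edgeR, adjusted p = 7.51e-08; 25.9% of genes lower) and above by 1.36 ± 0.37 at E16.5 (adjusted p = 0.00238; 24.1% higher). The E16.5 value was 0.72 (adjusted p = 0.226) without the 5% of barcodes with the most UMIs, and 3.82 without E16.5 replicate 2. The change of this contrast between the 2 stages was 4.78 ± 0.60 (adjusted p = 5.86e-08), against 18.8% of all genes with a changed contrast. For Tbx3 the ungated class was also above the others at E16.5, by 1.23 (18.7% of genes higher). At P3 it held Tbx3 at 11.4 CPM under barcode suffix 1 and 19.4 CPM under suffix 2. In the Col1a1 class, Tbx3 went from 29.8 and 21.5 CPM at E10.5 through 11.9 and 8.19 in E12.5 hearts and 9.19 and 8.2 at E14.5 to 3.66 and 2.82 in E16.5 hearts and 3.39 at P3. It fell by 1.29 ± 0.32 from E12.5 to E16.5 (log2, adjusted p = 0.00194; 12.7% of genes fell). In the Upk3b class it was seen in 20.8 and 17.3% of E10.5 barcodes, at most 2.78% in any heart library and 0 of 22 barcodes at P3.

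Tbx1 was a gene of the embryo libraries. The Cdh5 class held it in 34 of 174 barcodes at E8.5 (8.8 CPM, beside 8.07 in free RNA) and in 123 of 446 and 109 of 412 at E10.5 (19.9 and 20 CPM). The Epcam class held it in 76 of 614 barcodes at E8.5 (11.2 CPM) and in 74 of 785 and 107 of 718 at E10.5 (10.54 and 20.6 CPM), and the ungated class in 7.41% at E8.5 and 5.42 and 5.98% in the E10.5 embryos. At E10.5 the Cdh5 class was above the others by 1.98 ± 0.22 (log2, edgeR, adjusted p = 3.47e-09; 24.6% of genes higher) and the Epcam class by 1.37 ± 0.23 (adjusted p = 1.12e-05). The Upk3b class, at 6.57 and 8.7 CPM, gave a difference of 0.18 (adjusted p = 0.843). In heart muscle it was rare, with 3, 5, 2, 0, 0 and 0 barcodes in the 6 heart libraries and 7 of 6997 at P3, shares within the erythroid background, after 2 of 68 and 2 of 69 at E10.5 (2.94 and 2.90%). The Cdh5 class of the hearts kept 4 to 8 Tbx1 barcodes in each library and 11 of 575 at P3.

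The pairs of genes within 1 barcode differed by class. Among Tnnt2 cells, Tbx3 was seen in 35.4 and 29.8% of the barcodes with Tbx2 at E12.5, against 5.36 and 6.62% of those without. At E14.5 these shares were 26.7 and 25.9% against 4.37 and 4.16%, at E16.5 22.8 and 7.89% (13 of 57 and 3 of 38) against 2.26 and 1.59%, and at P3 11.1% against 3.71%. The share with Tbx2 was the higher in each of these libraries, and also in the E10.5 and E8.5 ones, where it was 50, 27.3 and 30.8% against 10.7, 13.8 and 20.7%. In the ungated class of E10.5, 453 of 855 and 427 of 827 Tbx2 barcodes held Tbx3 (53 and 51.6%), against 8.63 and 8.16% of the rest. Tbx1 and Tbx18 went together there too: 203 of 707 and 233 of 762 Tbx1 barcodes held Tbx18 (28.7 and 30.6% against 5.97 and 5.75%). Barcodes with a gene tended to hold more UMIs in all, and the part of depth in these pairs was not tested.

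To see what the Tbx2, Tbx3 and Tbx18 cells of heart muscle express beside these genes, UMIs were summed in each library over the Tnnt2 barcodes with and without a UMI of the gene, and the 2 sums were compared with edgeR over the 6 heart libraries. For Tbx3 there were 904 barcodes with and 17825 without, with median UMIs per library of 12589 to 23135.5 and 12044.5 to 19892. Of 12545 genes, 3427 differed (27.3%), 1613 higher and 1814 lower, and 2968 of them also did so, in the same direction, against barcodes matched for UMIs.

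The genes of the atrioventricular canal and node list stood with Tbx3. Of its 17 tested genes of 18, 16 were higher and none lower, with a median log2 difference of 2.81 beside 0.00 for all genes tested. Bmp2, a ligand of the atrioventricular canal, was at 97.4, 81.5, 115, 87.5, 45.8 and 86.1 CPM with Tbx3 in replicates 1 and 2 of E12.5, then of E14.5, then of E16.5, and at 3.65, 4.65, 4.78, 5.24, 1.18 and 1.11 CPM without. The groups did not overlap, and the log2 difference was 4.48 ± 0.18 (adjusted p = 1.3e-10). Rspo3, a secreted activator of Wnt signalling, was at 253, 223, 225, 227, 116 and 77.1 CPM against 19.8, 27, 16.8, 16.4, 2.21 and 3.11 (3.71 ± 0.22, adjusted p = 7.7e-09). Both genes were many times higher with Tbx3 in every library, and both groups had less Rspo3 at E16.5. The channel genes of pacemaker tissue were higher too, namely Cacna1g (T-type calcium channel, 3.11 ± 0.20) and Hcn4 (pacemaker current, 3.01 ± 0.39), as were the transcription factor Shox2 of the sinus node (3.08 ± 0.25) and Msx2 (2.81 ± 0.15). Isl1 gave 0.22 ± 0.46 (adjusted p = 0.78).

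The leading genes by size were the antisense gene Tbx3os1 (5.43 ± 0.37, not called against UMI-matched barcodes), the neuropeptide gene Gal (galanin, 5.33 ± 0.26), the glucagon receptor gene Gcgr (5.25 ± 0.45), Bmp2, the opioid receptor gene Oprk1 (4.39) and the neurotensin receptor gene Ntsr1 (4.22). Gal was at 134, 57.8, 88.2, 50.2, 82.2 and 57 CPM with Tbx3, and at 4.68, 2.64, 1.89, 0.234, 0.582 and 0.777 CPM without. All 6 libraries with Tbx3 were above all 6 without. Other members moved in part: Tbx2 was higher (2.47 ± 0.16, adjusted p = 3.3e-08), and Tbx18 gave 0.05 ± 0.10 (adjusted p = 0.80). Among other T-box genes, 2 of 3 tested were higher, Tbx5 (1.16 ± 0.11, adjusted p = 2.0e-06) among them, while Tbx20 gave 0.17 (adjusted p = 0.073).

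Genes of the chamber list, drawn up for the chamber programme that Tbx2 and Tbx3 are known to repress, stood on the other side. Repression of each listed gene was not tested, and Ryr2 is also one of the cardiomyocyte markers. Of the 12 on this list, 11 were lower with Tbx3 and none higher, with a median of -0.66. Gja1, the gene of the fast connexin 43, was at 42.6, 48.5, 83.3, 81.1, 110 and 111 CPM with Tbx3 against 126, 148, 187, 187, 235 and 240 without (log2 -1.49 ± 0.07, adjusted p = 9.8e-10). The Tbx3 barcodes were lower in each library, and in both groups the E16.5 values were above those of E12.5. Outside the list, Mb, myoglobin, was lower by a log2 difference of -1.50 ± 0.05 (adjusted p = 2.4e-11), and Bmp10 of -1.48 ± 0.14. The ventricular factor Hey2 of the list gave -0.77 ± 0.08. Nppa was at 1659, 1233, 756, 816, 1229 and 1759 CPM against 2940.2, 2469.7, 877, 866, 1578 and 1644 (-0.59 ± 0.10, adjusted p = 4.6e-04), lower in 5 of 6 libraries. Of the cardiomyocyte markers 5 of 8 were lower and 2 higher, and 10 of 12 cushion mesenchyme genes were higher in the same barcodes, with 3 of 6 mesenchymal markers.

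**Figure D2:**
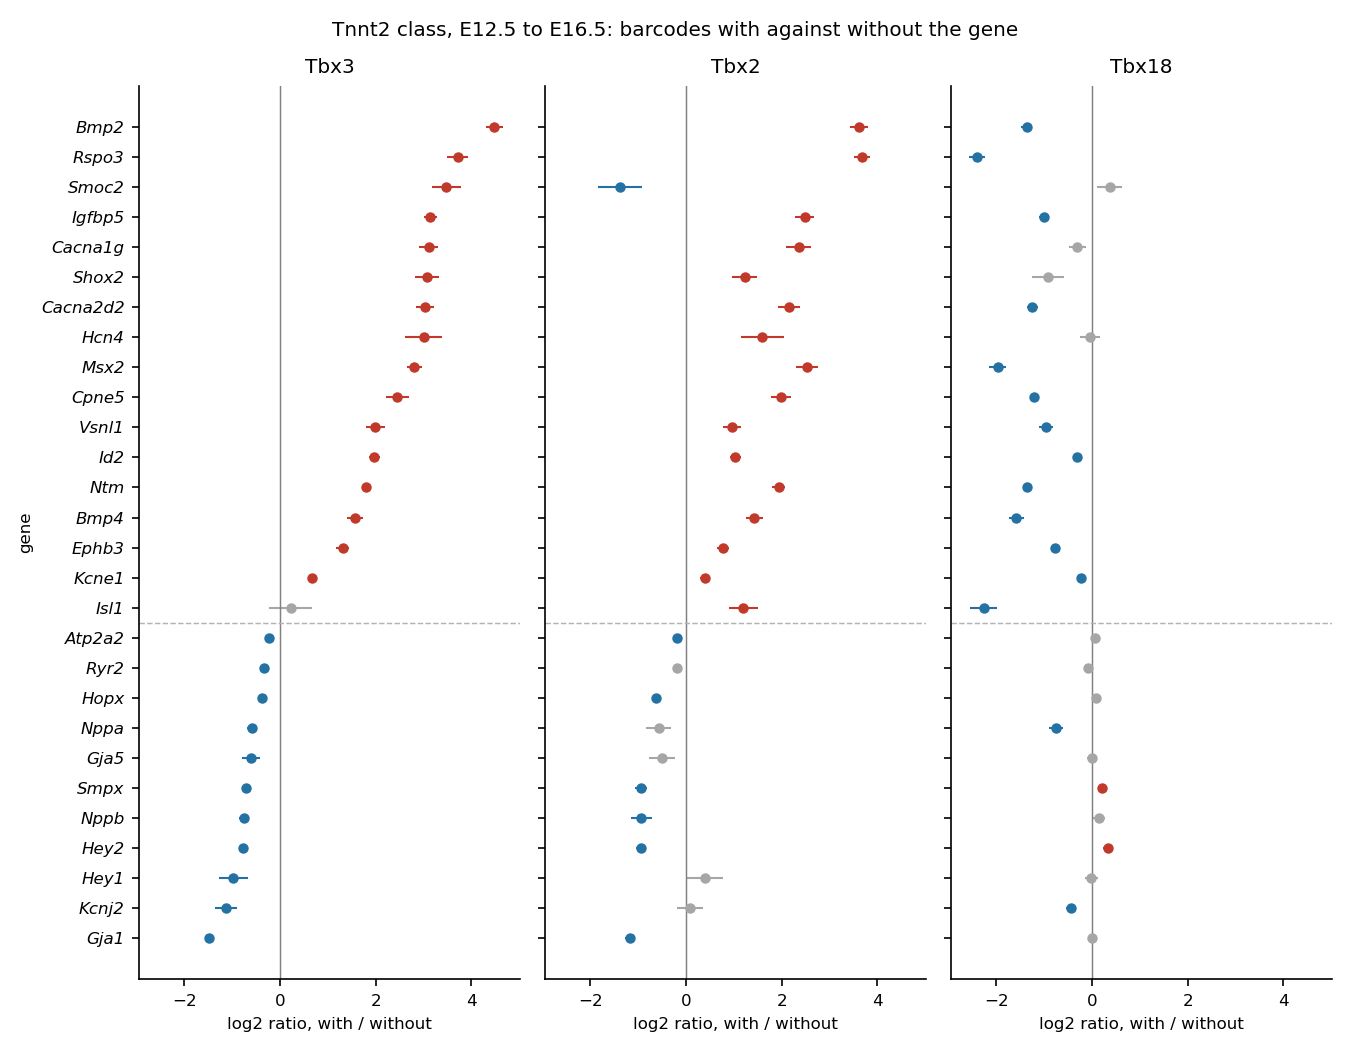
Log2 difference (horizontal axis) of atrioventricular canal, node and chamber genes between heart Tnnt2 barcodes with and without Tbx3, Tbx2 or Tbx18, 1 panel per gene; bars are SE over 6 libraries, red is higher, blue lower and grey not passing. Canal genes lie to the right with Tbx3 and Tbx2 (Bmp2 at 4.48 and 3.62) and to the left with Tbx18 (Bmp2 at -1.37).

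Tbx2 in heart muscle (747 barcodes with and 17982 without) gave 2892 of 12480 genes (23.2%), 1393 higher and 1499 lower, of which 2492 held in direction against UMI-matched barcodes. Its canal and node list had 16 of 17 tested genes higher and 1, Smoc2, lower, with a median of 1.60 beside 0.01 for all genes. Smoc2 (-1.39 ± 0.46, adjusted p = 0.040) was also the gene whose call was lost against matched barcodes. Bmp2 was at 65, 74.2, 97.6, 83.2, 60.4 and 16.4 CPM with Tbx2 against 6.37, 5.72, 6.45, 6.77, 1.47 and 2.65 without (3.62 ± 0.19, adjusted p = 2.4e-08). Rspo3 was at 229, 250, 246, 272, 130 and 41.1 CPM against 19.5, 24.1, 17, 18.3, 3.34 and 4.07 (3.68 ± 0.17, adjusted p = 8.7e-09). In both genes E16.5 replicate 2 was the lowest of the libraries with Tbx2. Hcn4 (1.60 ± 0.45, adjusted p = 0.019) and Isl1 (1.20 ± 0.30, adjusted p = 0.010) passed, but Hcn4 was lost without either E14.5 replicate (1.05 and 1.41) and Isl1 without E14.5 replicate 1 (1.05).

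Of the chamber list, 7 of 12 were lower with Tbx2 and none higher, with a median of -0.60. Gja1 gave -1.17 ± 0.10 (adjusted p = 3.2e-06), while Nppa gave -0.57 ± 0.26 (adjusted p = 0.13). Outside the list Mb gave -1.32 ± 0.08 and Bmp10 -1.45. The Iroquois factors Irx1 (-1.55 ± 0.23) and Irx2 (-1.48 ± 0.17) were among the genes with the largest decrease, and so was Tbx18. Tbx18 was at 8.51, 4.34, 10.2, 4.62, 8.51 and 13.7 CPM with Tbx2 against 18.5, 17.9, 24.2, 23.4, 21.6 and 21.4 without (-1.61 ± 0.15, adjusted p = 5.6e-06). The groups did not overlap. Markers of other classes moved too: 3 of 6 mesenchymal markers, 5 of 13 cushion genes and both tested epithelial markers were higher (medians 0.91, 0.86 and 0.76), and of 8 cardiomyocyte markers 4 were lower and 2 higher. Of 8 tested pericyte genes, 5 were higher and 2 lower in the Tbx2 barcodes, with Rgs5 (2.90 ± 0.96, adjusted p = 0.040) and Pdgfrb (2.71 ± 0.84, adjusted p = 0.029). Neither was called by DESeq2 (2.27 and 1.59) or without an E16.5 replicate (1.81 and 1.94 for Rgs5, 1.90 and 1.83 for Pdgfrb) or E14.5 replicate 1 (2.78 and 3.03), and Rgs5 also not without E14.5 replicate 2 (2.95) or the 5% of barcodes with the most UMIs (2.11).

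With Tbx18 in heart muscle (3524 barcodes with and 15205 without) the canal list turned round. There, 13 of 17 tested genes were lower and none higher, with a median of -1.001 beside -0.01 for all genes, and the 13 also held against matched barcodes. Rspo3 was at 7.42, 7.02, 10.9, 8.08, 1.38 and 2.83 CPM with Tbx18 against 55.9, 62.4, 35.4, 33.6, 7.05 and 5.19 without (-2.41 ± 0.17, adjusted p = 1.7e-07). Bmp2 (-1.37 ± 0.12), Tbx2 (-1.83 ± 0.20, adjusted p = 8.1e-06), Tbx3 (-0.71 ± 0.12, adjusted p = 5.9e-04) and Isl1 (-2.27 ± 0.28) were lower too, and Hcn4 gave -0.04 (adjusted p = 0.92). Sln, sarcolipin, was at 17.7, 14.7, 32.3, 15.4, 121 and 175 CPM against 41.3, 40.9, 123, 77.6, 491 and 473 (-1.77 ± 0.10, adjusted p = 9.8e-09), and Myl7, the atrial light chain, gave -0.83 ± 0.09. Of the chamber list 3 genes were higher, with Hey2 at 0.33, and 2 lower, with Nppa at -0.76 ± 0.15.

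In all, 3023 of 12562 genes (24.1%) differed with Tbx18 in muscle, 2006 against matched barcodes and 1790 in both with the same sign. The median UMIs of barcodes with Tbx18 were 17317 to 27569 per library and of those without 10605 to 18038, a wider gap than for Tbx2 or Tbx3 in muscle. Some mesenchymal and mesothelial markers moved with Tbx18: 4 of 6 mesenchymal markers were higher, Postn (1.08) and Col3a1 (0.98) among them, and so were both tested mesothelial markers, Wt1 at 0.96 ± 0.12. The lists that share genes with these were split. The epicardial list had 2 genes higher and 2 lower, and the cushion list 2 higher and 4 lower, all still called against UMI-matched barcodes. Among other lists, 2 epithelial markers, 3 capillary genes and 4 pharyngeal genes were lower and none higher. Of these, 2, 2 and 2 held against UMI-matched barcodes. Their part in the result was not tested.

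E10.5 heart muscle was thin, with 23 barcodes with and 114 without for each of Tbx2 and Tbx3, in 2 libraries. Even so, Bmp2 was at 316 and 546 CPM with Tbx3 against 34.7 and 32.6 without (3.60 ± 0.25, edgeR, adjusted p = 2.3e-41), and Rspo3 at 555 and 390 against 80 and 219 (1.72 ± 0.22). Nppa, whose promoter is printed above, had 3 UMIs in all barcodes with Tbx3 and 2297 in those without, or 5.55 and 13 against 2161 and 882 CPM. With Tbx2 it was at 89.1 and 337 CPM against 2304 and 817 (-2.93 ± 0.35, adjusted p = 2.9e-07), and Bmp2 at 280 and 201 against 24.5 and 102 (2.03 ± 0.36, adjusted p = 5.5e-04). The small muscle protein gene Smpx was at 117 and 45.5 CPM with Tbx3 against 621 and 399 without. Nppa and Smpx were lower with either gene in both libraries, and Bmp2 and Rspo3 higher. In all, 87 of 4753 genes (1.83%) differed with Tbx3 and 34 of 4680 (0.726%) with Tbx2. DESeq2 called 5 genes with Tbx2, 0 higher and 5 lower, so Bmp2 lost its call there. Without the library as a block, 1 of the 14 genes called with Tbx2 was higher. With Tbx3, DESeq2 called 12 genes, 4 higher and 8 lower. Of 13 tested canal genes, 6 and 2 were higher, and of 8 chamber genes 3 and 2 lower. With Tbx2, 2 cardiomyocyte markers were higher as well, 1 of them also against UMI-matched barcodes. Against such barcodes, 23 of the 87 and 8 of the 34 genes were still called in the same direction.

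The single libraries on either side are given by their values, without a test. At E8.5, Tnnt2 barcodes with Tbx2 (26) held Bmp2 at 49.1 CPM against 19.8 in the 82 without, Rspo3 at 89.2 against 44.6 and Nppa at 229 against 580. With Tbx3 (25) Bmp2 was at 40.4 against 23.2, Gal at 169 against 14.4 and Nppa at 392.3 against 514. Bmp2 was thus the higher and Nppa the lower with either gene at E8.5. At P3, the 275 Tnnt2 barcodes with Tbx3 held Bmp2 at 34.1 CPM against 1.63, Rspo3 at 16.9 against 0.626, Hcn4 at 7.41 against 0.722, Shox2 at 16.49 against 0.674 and Cacna1g at 45.4 against 11.1. Gja1 was at 148 against 264 CPM and Nppa at 3654 against 7586. With Tbx2 (208) Bmp2 was at 38.6 against 1.98 CPM, and the pericyte gene Rgs5 at 121 against 9.7. Nppa was the other way round with Tbx2 at P3, at 10017 against 7299 CPM. With Tbx18 (639) Sln was at 415 against 1177 CPM and Myl7 at 1944 against 5012.

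Cushion genes were among those higher with Tbx3 and among those lower with Tbx18 in the Col1a1 class of the hearts. With Tbx3 (150 barcodes against 2359), 449 of 8129 genes differed (5.52%), and 6 of 12 tested cushion mesenchyme genes were higher with 1, Bmp4, lower. Their median was 0.55 beside 0.00 for all genes. Msx1, a transcription factor of cushion cells, was at 159, 123, 204, 216, 110 and 211 CPM with Tbx3 against 49.9, 47.1, 51.5, 39.4, 15.2 and 21.1 without (2.12 ± 0.19, adjusted p = 3.7e-06). The groups did not overlap. Lef1, a nuclear effector of Wnt signalling (1.50 ± 0.26, adjusted p = 0.0018), Hapln1, a link protein of the cushion matrix (1.34 ± 0.21), Twist1 (0.98 ± 0.10) and Tbx5 (1.70 ± 0.29, adjusted p = 0.0017) were higher too. Of the 6 mesenchymal markers 2 were higher and 2 lower, with a median of -0.11. Among the single genes that were lower, Lsp1 was at -2.39 ± 0.30, Aspn (asporin) at -1.71 ± 0.21 and Col14a1 at -1.42. Tcf21, the factor of cardiac fibroblasts, gave -1.17 ± 0.32 (adjusted p = 0.036) and Tbx18 -0.94 ± 0.24 (adjusted p = 0.024). Tcf21 was not called without any 1 of the E14.5 and E16.5 libraries (-1.04 to -0.89), nor Tbx18 without E12.5 replicate 2 or an E14.5 replicate (-1.08 to -0.73). The count of genes was 190 without E14.5 replicate 1 and 214 without E14.5 replicate 2.

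With Tbx18 (999 against 1510 barcodes) the cushion list was on the low side, 6 of 13 lower and none higher, with a median of -0.51 beside 0.00 for all genes. Msx1 was at 29.5, 37, 18.9, 15.7, 8.03 and 12.54 CPM with Tbx18 against 98.7, 68.3, 104, 77.6, 31.3 and 36.5 without (-1.72 ± 0.16, adjusted p = 4.5e-06), Lef1 gave -1.72 ± 0.17 and Hapln1 -1.14 ± 0.11. In each library the Tbx18 barcodes had the lower Msx1. Of other lists, 4 of 11 canal genes were lower (median -0.52), and 2 of 7 epicardial genes (median 0.55) and 1 of 3 mesothelial markers (median 0.63) were higher. Against UMI-matched barcodes, 3 of these canal, 1 of the epicardial and 0 of the mesothelial genes were still called, and all 6 cushion genes. Tcf21 was at 69.3, 54.6, 59.9, 49.8, 122 and 182 CPM against 31.1, 34.9, 31, 48, 107 and 126 (0.55 ± 0.11, adjusted p = 0.0048), higher in all 6, though by little at E14.5 replicate 2. Among the genes named for the size of their increase were the kinesin gene Kif4 (1.12 ± 0.18), Aspm (0.98 ± 0.18) and the anillin gene Anln (0.96 ± 0.16). Barcodes with Tbx18 had median UMIs of 10599 to 16217 against 7601 to 12849, and of the 439 genes that differed (4.51% of 9730), 219 held against matched barcodes. At P3 (780 against 866 barcodes) Cdk1, the mitotic kinase, was at 146 against 55.2 CPM and Birc5 at 171 against 66.1.

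Tbx2 marked little in this class. With 182 barcodes against 2327, 13 of 8491 genes differed (0.153%), against 547 at an unadjusted p under 0.05 and 13 by DESeq2. The lower ones included the elastic fibre gene Fbln5 (-1.81 ± 0.22, adjusted p = 4.7e-04), Tnfrsf12a (-1.35 ± 0.15) and S100a6 (-1.21 ± 0.19). Tbx3 was seen in 45 and 33.3% of Tbx2 barcodes of this class at E12.5 against 9.4 and 5.85% of the others.

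**Figure D3:**
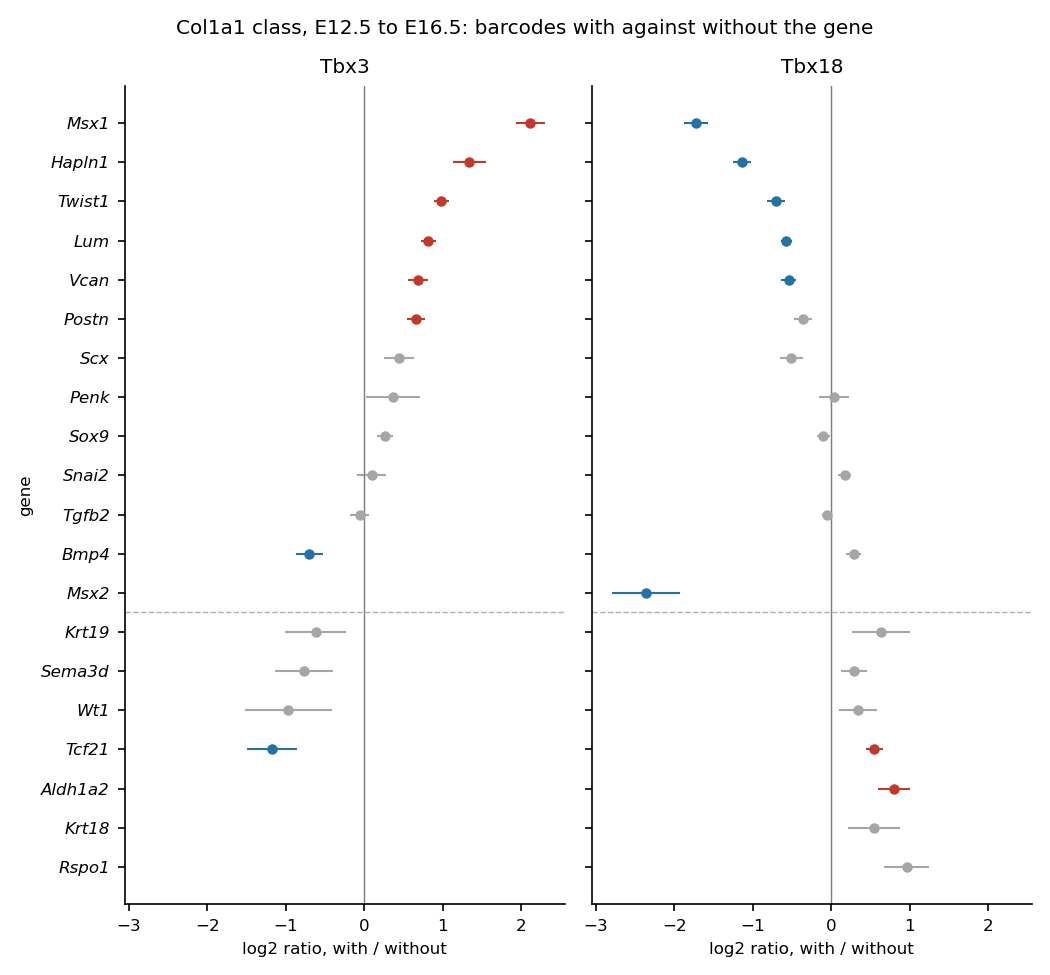
Log2 difference (horizontal axis) of cushion and epicardial genes between heart Col1a1 barcodes with and without Tbx3 or Tbx18, 1 panel per gene; bars are SE over 6 libraries, red is higher, blue lower and grey not passing. Msx1 lies at 2.12 with Tbx3 and at -1.72 with Tbx18.

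Most heart Upk3b cells held Tbx18, and the comparison there is of 667 barcodes with it and 119 without. It gave 75 of 4956 genes (1.51%), 51 higher and 24 lower, and 17 and 22 genes without E12.5 replicate 2 or 1. Apela, a ligand of the apelin receptor, was at 646, 612, 386, 523, 346 and 421 CPM with Tbx18 against 105, 228, 269, 193, 159 and 47.3 without (1.59 ± 0.24, adjusted p = 0.0025). Osr1, a transcription factor of intermediate and splanchnic mesoderm, was at 9.56, 3.4, 15.2, 10.8, 99.2 and 59.8 CPM against 40.4, 43.2, 26.1, 67.4, 252 and 509 (-2.31 ± 0.29, adjusted p = 7.4e-04), and Cd24a gave -2.45 ± 0.30. Apela did not overlap between the groups and each library had less Osr1 with Tbx18. Of the 13 epicardial genes 2 were higher, Msln (1.32 ± 0.30, adjusted p = 0.035) and Krt18 (1.12 ± 0.24, adjusted p = 0.029), while both tested pericyte genes were lower and 2 of 4 mesenchymal markers higher. Msln and Krt18 were lost without 1 of several libraries (Msln at 1.00 to 1.37). The median of the list was 0.73 beside 0.00 for all genes, and Wt1, the standard epicardial factor, gave 0.32 (adjusted p = 0.59).

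At E10.5 the Upk3b class was more mixed, with 121 barcodes with Tbx18 and 230 without in 2 libraries, and 721 of 8750 genes differed (8.24%). Itga4, the integrin that attaches epicardial cells, was at 81.8 and 85.3 CPM with Tbx18 against 1.46 and 1.4 without (5.77 ± 0.31, adjusted p = 3.4e-71). Apela was at 82.5 and 85.3 against 4.86 and 6.54 CPM, Wt1 at 158 and 156 against 70.9 and 69.2, Tcf21 at 31.9 and 35.1 against 11.7 and 5.61 and the uroplakin gene Upk1b at 56.1 and 62.7 against 9.71 and 5.61. Each of these genes was higher with Tbx18 in both libraries. Of 11 tested epicardial genes 7 were higher and 2, the keratins Krt8 (-1.45) and Krt18 (-0.70), lower, with a median of 0.93 beside 0.00 for all genes. Col1a1, which is part of the gate, was at 28.4 and 22.6 CPM against 286 and 285, and 4 of 6 mesenchymal markers were lower.

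In the Cdh5 class of E14.5 and E16.5, 75 barcodes with Tbx3 were set against 1541 without. All 4 tested genes of a coronary capillary list were higher and all 4 of an endocardial list lower, with medians of 1.64 and -3.42 beside 0.01 for all genes; both lists were added after the shares had been seen. Other lists moved in the same barcodes: 5 of 6 mesenchymal markers were lower (median -2.68), 4 of 5 lymphatic genes (median -3.31) and 5 of 9 cushion genes (median -1.46), with 2 other cushion genes higher. Their part in the result was not tested. Aplnr, the apelin receptor of coronary vessels, was at 143 and 82.5 CPM with Tbx3 in E14.5 hearts and 210 and 189 in E16.5 hearts, against 34.6, 49.2, 60.4 and 49.9 without (1.76 ± 0.15, adjusted p = 1.4e-08). Fabp4, a fatty acid carrier of capillaries, was at 2429.6, 2190.5, 7645 and 5619.99 CPM against 1348, 1182, 3091 and 2437 (1.12 ± 0.08), with Cd36 (1.56 ± 0.12) and Rgcc (1.72 ± 0.11) on the same side. Npr3, a natriuretic peptide receptor of endocardium, was at 39.1, 18.3, 1.78 and 2.82 CPM against 137, 102, 197 and 210 (-3.65 ± 0.35), and Mgp, the matrix Gla protein, at 13.8, 30.6, 35.5 and 31.1 against 229.97, 176, 1018 and 917 (-4.43 ± 0.21, adjusted p = 2.6e-13). Aplnr and Fabp4 were above and Npr3 and Mgp below in all 4 libraries.

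Of 9572 genes, 835 differed (8.72%), and against UMI-matched barcodes 278, with all 4 capillary and 2 of the endocardial genes still called. Of the genes that were lower in the other lists, 3 of the 5 mesenchymal, 2 of the 5 cushion and 1 of the 4 lymphatic ones were still called. Median UMIs were 20644 to 24830 with Tbx3 and 10832 to 14280.5 without. At P3, 214 Cdh5 barcodes with Tbx3 held Car4, carbonic anhydrase 4, at 284 CPM against 72.2 in the 361 without, Fabp4 at 16783 against 6169, Aplnr at 174 against 61.7, Npr3 at 9.89 against 259 and Tmem108 at 6.03 against 198. Fabp4, Aplnr and Npr3 kept the signs of the embryonic hearts. The pericyte gene Rgs5 stood at 227 against 66.9 CPM in them. In the 74 P3 Cdh5 barcodes with Tbx2, Rgs5 was at 472 against 68 CPM, Higd1b at 130 against 16.4 and Kcnj8 at 77.6 against 15.8, and 56 of the 74 also held Tbx3. The part of these pericyte genes in the Cdh5 result was not tested.

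In the ungated class of the hearts, 359 barcodes with Tbx2 were set against 6574 without, and 283 of 10141 genes differed (2.79%), 138 against matched barcodes. Median UMIs were 9357.5 to 18744.5 with Tbx2 and 3400 to 14504.5 without, and 8 mitochondrial genes were among the largest decreases (mt-Co2 at -2.48 ± 0.43), of which 7 turned sign with the mitochondrial ceilings of the study. The part of RNA quality in the result was not tested. The K-ATP channel gene Kcnj8, of pericytes, was at 0.582, 0, 96, 91.7, 526 and 449 CPM with Tbx2 against 1.1, 1.87, 14.1, 12.1, 82.9 and 65.1 without (2.06 ± 0.33, adjusted p = 0.0055). Ndufa4l2 was at 24.5, 28.5, 237, 186, 1555 and 1501 CPM against 14.2, 14.8, 52.1, 46.8, 242 and 182 (1.73 ± 0.22) and Cygb, cytoglobin, at 5.24, 7.26, 55.2, 47, 284 and 313 against 3.62, 2.91, 8.98, 11.5, 54.7 and 36.7 (1.87 ± 0.22). At E12.5 these genes were low in both groups, with Ndufa4l2 and Cygb already higher with Tbx2 and Kcnj8 not. At E14.5 and E16.5 each was several times higher with Tbx2. Kcnj8 and Higd1b (3.12 ± 0.26) were the 2 of 9 tested pericyte and mural genes that passed, both also against matched barcodes. The list had a median of 1.27 beside 0.00 for all genes, with Pdgfrb at 0.93 (adjusted p = 0.096) and Rgs5 at 1.27 (adjusted p = 0.49). Tbx3 was higher (1.85 ± 0.21, adjusted p = 5.1e-04), and Tbx18 gave 0.14 ± 0.22 (adjusted p = 0.87). Endothelial markers were lower (6 of 6) and so were macrophage markers (4 of 4). At P3, where 180 of 893 ungated barcodes held Tbx2, Rgs5 was at 4424 against 1482 CPM, Myh11, a smooth muscle myosin, at 361 against 51 and Notch3 at 329 against 101.

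Tbx1 in the Epcam class of E10.5 (181 barcodes with and 1322 without) differed in some genes of the pharyngeal and of the otic and surface lists. The endoderm factors Pax9 (57.1 and 39.7 CPM with Tbx1 against 8.75 and 8.28), Nkx2-6 (32.7 and 28.6 against 4.62 and 4.98) and Pax1 (31 and 25.4 against 10.47 and 9.57) were higher, by 2.46 ± 0.17, 2.64 ± 0.20 and 1.46 ± 0.17 on the log2 scale (edgeR, adjusted p = 3.2e-04 for Pax9 and 5.6e-04 for Nkx2-6). Oc90, a matrix protein of the otic vesicle, was at 20.5 and 61.1 CPM against 2.76 and 0.482 (4.52 ± 0.61, adjusted p = 0.0086), and Hoxb1 at 66 and 58.6 against 11.2 and 12.3. Both libraries showed each of these differences. Krt14, a keratin of the surface, was at 2.22 and 1.79 CPM against 16.6 and 13.3 (-2.92 ± 0.31), and Pitx1 gave -2.43 ± 0.17. Of 17 tested pharyngeal genes 5 were higher and 1 lower (median 0.03 beside 0.00 for all genes), and of 6 otic and surface genes 2 were higher and 2 lower. None of 3 tested lung genes passed. Of other lists, 2 of 6 mesenchymal markers were higher (median 0.70), with 3 of 13 cushion genes higher and 2 lower and 1 of 2 neural crest markers higher. Fgf8, a pharyngeal growth factor, gave 0.03 (adjusted p = 0.94). In all 239 of 12026 genes differed (1.99%), 81 by DESeq2. At E8.5, 76 Epcam barcodes with Tbx1 held Pax9 at 44.4 CPM against 6.74 and Ripply3 at 156 against 28.7.

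In the ungated class of E10.5, Tbx1 (1469 barcodes against 24320) stood with several transcription factors. Foxf2 was at 21.4 and 18.1 CPM with Tbx1 against 2.98 and 3.22 (2.68 ± 0.11, edgeR, adjusted p = 1.4e-16), Tbx18 at 38.2 and 37 against 6.67 and 6.11 (2.57 ± 0.07, adjusted p = 5.5e-20), Tcf21 at 6.47 and 6.12 against 0.939 and 0.868 (2.81 ± 0.19) and Msc, a factor of branchial arch muscle, at 9.22 and 7.86 against 2.45 and 2.24 (1.88 ± 0.14). These 4 factors were several times higher in both libraries. Of 19 pharyngeal genes 12 were higher, with Pax9 (1.80 ± 0.10), Foxc2 (1.61 ± 0.08) and Eya1 (1.12), and 4 were lower, with Shh at -2.19, Foxa2 at -1.55 and Fgf8 at -0.38. The median was 0.48 beside 0.00 for all genes, of which 4519 of 15711 (28.8%) differed. Neural and cardiomyocyte markers were lower (5 of 5 and 8 of 8). Among markers of other classes, 5 of 6 mesenchymal (median 0.99) and 4 of 6 endothelial markers (median 1.05) and 4 of 9 pericyte genes (median 0.90) were higher and none lower. Of the cushion list 9 genes were higher and 2 lower, and of the canal and node list 9 were higher and 3 lower.

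Tbx18 in the same class (1862 barcodes against 23927) gave the mirror of that pair, with Tbx1 at 30.3 and 35.5 CPM against 4.58 and 5.11 (2.73 ± 0.07, edgeR, adjusted p = 1.6e-08). Lum, lumican, was at 25.8 and 29.4 CPM against 4.61 and 5.35 (2.44 ± 0.07), and Tbx15 and Tbx5 gave 2.40 ± 0.24 and 1.43 ± 0.10 among 5 of 11 other T-box genes that were higher. Of these 11 genes, 2 were lower. Tbx2 (-0.85 ± 0.12) and Tbx3 (-0.55 ± 0.08) were lower. All 8 cardiomyocyte markers (median 1.16), 5 of 6 mesenchymal markers (median 1.12), 7 of 9 pericyte genes, 3 of 5 mesothelial markers and 10 of 13 cushion genes were higher, and all 5 neural, 5 macrophage, 5 erythroid, 6 epithelial and 3 neural crest markers were lower. In all, 6311 of 15861 genes differed (39.8%). At E8.5 the 266 ungated Tbx18 barcodes held the somite factors Tcf15 at 197 CPM against 40.2 and Meox1 at 157 against 41.2.

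**Figure D4:**
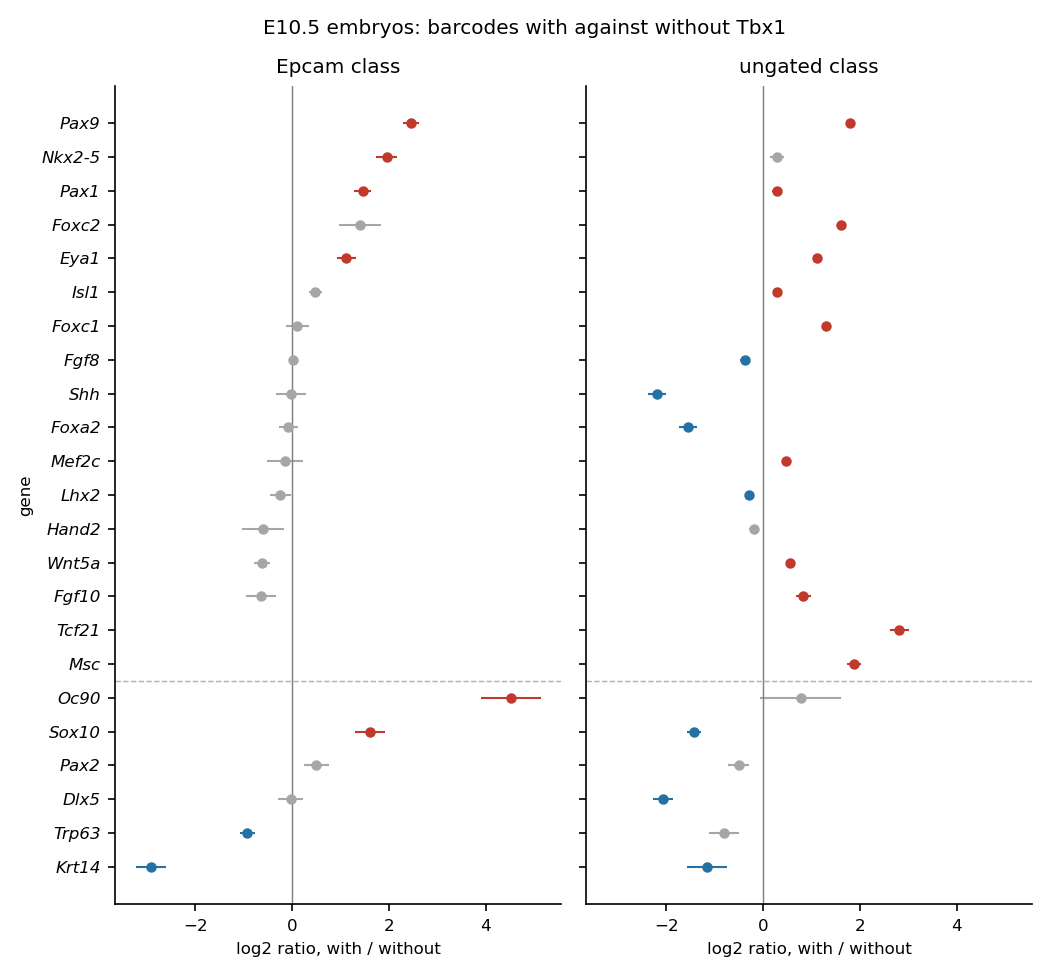
Log2 difference (horizontal axis) of pharyngeal, otic and surface genes between E10.5 barcodes with and without Tbx1, with 1 panel for the Epcam and 1 for the ungated class; bars are SE over 2 libraries, red is higher, blue lower and grey not passing. Pax9 lies at 2.46 in the Epcam and 1.80 in the ungated class, and Krt14 at -2.92 in the Epcam class.

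In the Cdh5 class of E10.5, Tbx1 (232 barcodes against 626) was compared for arterial, venous, endocardial and lymphatic genes. Gja4, an arterial connexin, was at 15.1 and 29.7 CPM with Tbx1 against 94.1 and 88.5 (-2.05 ± 0.17), Npr3 at 11.1 and 12.4 against 35.7 and 40.8 (-1.69 ± 0.13), and the von Willebrand factor gene Vwf at 6.35 and 9.34 against 42.9 and 40.1 (-2.41 ± 0.16). Each was lower in both libraries. Of 6 arterial genes 5 were lower, of 3 venous genes 1 and of 3 tested endocardial genes all 3, lists added after the shares had been seen. Of 5 tested lymphatic genes 3 were higher: Prox1, the master factor of lymphatic endothelium (3.76 and 6.87 CPM against 1.49 and 1.86, 1.65 ± 0.37, adjusted p = 0.020), Mmrn1 (0.64 ± 0.11) and Flt4 (0.50 ± 0.09), while Lyve1 was lower (-1.57 ± 0.37). Their median was 0.50 beside -0.01 for all genes. Lists of other cell types were lower in the same barcodes too: 2 of 3 mesenchymal markers (median -1.47), 4 of 9 cushion genes (median -0.97), 3 of 8 canal genes and 3 of 6 chamber genes, with none of these 4 lists holding a higher gene. Of the pharyngeal list 4 genes were lower and 1 higher, and against UMI-matched barcodes 3 and 0 of these were still called. The part of these lists in the result was not tested. Prox1, Mmrn1 and Lyve1 lost their calls without the 5% of barcodes with the most UMIs (1.58, 0.44 and -1.10). Median UMIs were 27518 and 30437 with Tbx1 and 17435 and 19480 without. In all, 635 of 10743 genes differed (5.91%), and 105 by DESeq2. Against UMI-matched barcodes, 426 of the 635 held in direction. Among them were 2 of the 3 endocardial and 3 of the 4 cushion genes, and all 5 arterial genes.

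Few Cdh5 barcodes of the hearts held Tbx1, 32 against 2159 over the matrices from E14.5 to P3, and more of them than of the rest held lymphatic genes. Prox1 was seen in 26 of the 32 (81.25%) against 15.4% of the others, or in 3 of 5, 3 of 4, 7 of 8, 4 of 4 and 9 of 11 barcodes of the 5 matrices. Its level was 208, 147, 498, 328 and 186 CPM with Tbx1 against 21.9, 27.3, 13.9, 10.8 and 12.8 without, and Mmrn1 was at 179, 177, 719, 692 and 731 CPM against 3.52, 4.88, 4.77, 2.92 and 0.435. Both genes were higher with Tbx1 in each of the 5 matrices. The lymphatic chemokine gene Ccl21a was seen in 78.1% against 1.02% of barcodes, Pdpn in 62.5 against 0.787%, Reln in 65.6 against 1.02%, Flt4 in 78.1 against 36.1% and Lyve1 in 56.25 against 15.2%, the last higher in 4 of 5 matrices. Endocardial Tmem108 was seen in 3.125 against 52.1%, and Npr3 in 4 of the 32 against 49.6%, but the endocardial list did not go 1 way. Nfatc1 was seen in 24 of the 32 (75%) against 45.9%, with the higher level in 4 of 5 matrices, and Cytl1 in 9.375 against 21.0%, at a pooled 134 against 52.2 CPM. The venous genes Nr2f2 (87.5 against 61.8%) and Ephb4 (87.5 against 63.1%) were also at a higher level with Tbx1 in 5 of 5 matrices. Of the capillary genes, Fabp4 was seen in 93.75 against 56.7% but at a lower level in all 5 matrices (a pooled 1178 against 5813 CPM). Cd36 was likewise seen more often (59.4 against 46.4%) at a lower level. The shares of Aplnr (9.375 against 29.6%), Rgcc (18.75 against 32.5%), Timp4 (3.125 against 10.2%) and Car4 (0 against 14.3%) were lower. No test was made of these shares, since the list was added after they were seen and the barcodes are few. Median UMIs were higher with Tbx1 in 4 of the 5 matrices, at 15834 to 30933 against 10986 to 14379, and lower at P3, at 20699 against 24183.5.

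**Figure D5:**
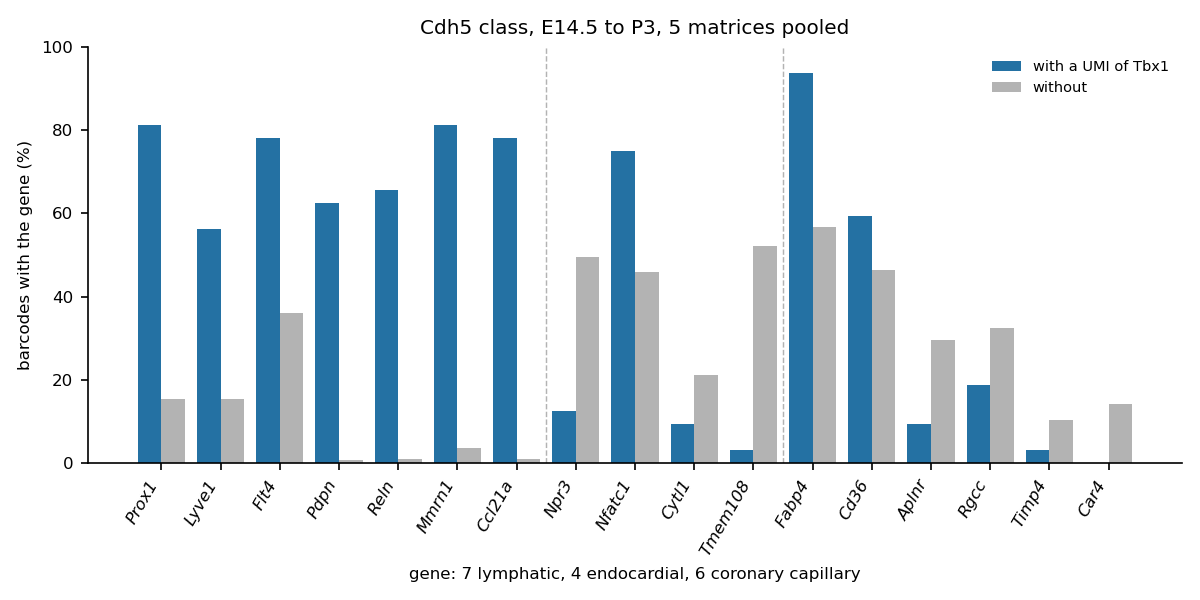
Share of Cdh5 barcodes with a UMI (%, vertical axis) for lymphatic, endocardial and capillary genes, in 32 barcodes with Tbx1 and 2159 without, pooled over 5 matrices of E14.5, E16.5 and P3; bars start at 0. Prox1 stands at 81.25 against 15.4% and Tmem108 at 3.125 against 52.1%.

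The genes whose level was most like each member over 50 sums of class and library are given as a description. The sums share libraries and depth, so no p is given. The nearest to Tbx18 were Loxl1 (Pearson r of log2(CPM + 1) 0.909), Daam2 (0.867) and Gria3 (0.865), and to Tbx1 the Hox genes Hoxb8 (0.926), Hoxb7 (0.925) and Hoxb5 (0.921). To Tbx2 they were Tbx3os1 (0.778), Cox4i2 (0.714), Ptges (0.668) and Tbx3 (0.659), and to Tbx3 Msx2 (0.792), Ube2d1 (0.745) and Enho (0.741). The values for Tbx2 and Tbx3 were lower than those for Tbx1 and Tbx18. Of the 13 other T-box genes, 5 could be tested across classes. Tbx5 was higher in the Tnnt2 class at each tested stage, by 4.59 ± 0.26, 2.76 ± 0.10, 1.47 ± 0.11 and 2.22 ± 0.12 (log2, edgeR, adjusted p = 1.78e-19 at E16.5), and Tbx20 by 6.56 ± 0.24, 0.79 ± 0.06, 1.15 ± 0.07 and 1.75 ± 0.08.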

How the data were processed

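Single-cell suspensions of 10 matrices were profiled with 10x Genomics 3′ chemistry. UMI counts for each gene in each barcode, aligned to mm10, are what the authors deposited. The labels list Cell Ranger 2.1.1 and Seurat 3.1.1, while the matrix headers name Cell Ranger 3.1.0, or 3.0.0 for P3, and the labels and the study's methods differ on chemistry version and enzyme. The counts are raw. No strand setting is named, but the paper used default Cell Ranger parameters and lists reads mapped antisense to genes on their own. The P3 matrix had been filtered before deposit, the others had not. By visual check, the paper found significant batch differences at P3 alone. Replicate 1 of E16.5 joins 2 sample records, and of E8.5 the second replicate alone was used.

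Barcodes with 2000 UMIs or more were kept and no doublet caller was run. Barcodes in several gates were left out. Counts were summed by library and class, with at least 10 barcodes in both libraries, and tested with edgeR 4.0.16 in R 4.3.3 (TMM, filterByExpr, quasi-likelihood F test, Benjamini-Hochberg threshold 0.05). The class and with/without contrasts had the library as a block, the stage contrasts had none. SE is the log2 difference divided by the square root of F. Folds come from this fit and can differ from the ratio of CPM. It is not stated for each stage whether its 2 libraries are different animals. The spread between libraries behind the p-values may therefore be technical. A with/without comparison at E10.5 rests on 2 libraries and 1 residual degree of freedom. Its p-values lean on a spread shared over all genes and on UMI counts. A very small one is not evidence over many replicates. The erythroid class is one of the classes averaged in a class contrast.

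The members and gene lists were chosen with earlier results of these data known. The lists were other T-box genes, canal and node, chamber, epicardial, pericyte, cushion, pharyngeal, otic and surface, and lung genes and class markers, with lymphatic, endocardial, capillary, arterial and venous lists added after the shares had been seen. Genes are named by a rule: the members, all genes of the lists, the 10 largest changes in each direction per comparison that passed, had the same sign in every library and held at least 50 UMIs, and the 5 genes most like each member. Of the listed genes, 3 enter the counts and medians but are not reported here by name or drawn. In the E8.5 and P3 matrices, named genes come from the lists or from the largest log2 ratios after adding 10 CPM. Lists are described by counts and medians, without a set test. The promoter comes from RefSeq (GRCm38.p6), and a promoter entry was found for Tbx1 and Tbx18 among the members. In simulated data, 91% of 4-fold and 19% of 2-fold changes were recovered for the E12.5 Tnnt2 class contrast (13732 genes), 77% and 4% for the E16.5 against E12.5 stage contrast (13722 genes), and 99% and 90% for Tbx3 in heart Tnnt2 barcodes (12430 genes). The spread in these simulations was set by hand, higher for the class and stage contrasts than for the barcode comparison. Their shares therefore cannot be set against each other. Only genes above a floor of UMIs were changed, so the shares do not speak for members with very low sums. Intervals cover counting error only. Alternatives covered the UMI floor (5000), mitochondrial ceilings, gates doubled and halved, DESeq2 1.42.0, filters, UMI-matched barcodes and each library left out.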

Additional observations from a re-analysis of the deposited data

Results flagged for a closer look

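The contrast of a class against the others was compared between E16.5 and E12.5 by an interaction term (log2, edgeR, Benjamini-Hochberg adjusted p), and 10 values of the members passed. Such an interaction passed for 30% of all genes in the Tnnt2 class, 18.8% in the Cdh5 class, 10.8% in the Upk3b class, 20.7% in the ungated class and 21.2% in the erythroid class. In the Tnnt2 class the contrast of Tbx2 changed by -3.97 ± 0.79 (adjusted p = 9.49e-05), of Tbx3 by -2.66 ± 0.80 (adjusted p = 0.00887) and of Tbx18 by 0.63 ± 0.17 (adjusted p = 0.00305). In the Cdh5 class that of Tbx3 changed by 4.78 ± 0.60 (adjusted p = 5.86e-08), of Tbx2 by 2.57 ± 0.61 (adjusted p = 0.00166) and of Tbx18 by -1.46 ± 0.51 (adjusted p = 0.0381). In the Upk3b class it changed by 2.39 ± 0.77 for Tbx2 (adjusted p = 0.0358) and by -0.84 ± 0.21 for Tbx18 (adjusted p = 0.0045). In the ungated class the contrast of Tbx2 changed by 1.59 ± 0.38 (adjusted p = 0.00146), and in the erythroid class that of Tbx18 by 1.60 ± 0.51 (adjusted p = 0.0196).

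The erythroid class held 0 UMIs of Tbx2 and of Tbx3 in E16.5 replicate 1 and is one of the classes averaged here. Without it, the change was -4.48 for Tbx2 and -2.67 for Tbx3 in the Tnnt2 class and 5.14 for Tbx3 in the Cdh5 class, but Tbx18 in the Upk3b class (-0.62, adjusted p = 0.0506), Tbx2 in the Upk3b class (2.08, adjusted p = 0.0518) and Tbx18 in the Cdh5 class (-1.15, adjusted p = 0.133) no longer passed. In the Tnnt2 class, leaving out E16.5 replicate 2 turned the change of Tbx3 to 0.51 and left that of Tbx2 at -2.32 (adjusted p = 1 for both). That of Tbx3 was also lost with halved gates (-1.26, adjusted p = 1), and that of Tbx2 without the 5% of barcodes with the most UMIs (-2.54, adjusted p = 1). Each of the 10 changes except that of Tbx3 in the Cdh5 class and of Tbx2 in the Cdh5 class was lost under at least 1 alternative. The values for Tbx2 in the Upk3b class and for Tbx18 in the Cdh5 class did not pass under several alternatives, with ranges of 1.60 to 4.27 and -2.05 to 0.08.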

How the results depend on the processing

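In all, 987 results were compared with their alternatives. They were the results that passed in the main fit, a few chosen results whether or not they passed, and the counts of genes called. Tbx1 contrasts that involve the hearts and 51 values without a DESeq2 adjusted p were left out. Apart from the chosen results, one that failed in the main fit and passed under an alternative could not be counted. For the class contrasts, 543 alternative values kept direction and side of the threshold, 47 no longer passed and 3 turned sign, and with a library left out these counts were 441, 38 and 1. For the stage contrasts, 284 were kept, 9 no longer passed and 1 turned sign, or 246, 18 and none with a library left out. For the genes compared between barcodes with and without a member, the counts were 7088, 518 and 7, or 2172, 265 and none with a library left out. The stage contrasts had no pairing in the main design, and with a replicate block no call changed: Tbx2 and Tbx3 in the Tnnt2 class stood at -2.62 and -2.05 from E12.5 to E16.5, and Tbx3 in the Cdh5 class at 4.16. Deviations of same-numbered libraries had correlations of -0.0659 to 0.0953. Such values cannot show whether libraries of the same number share a batch, and the labels do not say how they were numbered. Where no cause is given below, the cause was not tested.

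Without the 5% of barcodes with the most UMIs, the E16.5 contrast of Tbx3 in the Cdh5 class was 0.72 (adjusted p = 0.226) and the E16.5 against E12.5 change of the Tbx2 contrast in the Tnnt2 class -2.54 (adjusted p = 1). With halved gates that change for Tbx3 was -1.26 (adjusted p = 1). Over the libraries left out in turn it ran from -4.41 to -2.32 for Tbx2 and from -3.24 to 0.51 for Tbx3, the last of each without E16.5 replicate 2. The sign turned with doubled gates for Tbx18 in the Col1a1 class at E10.5 (-0.32), Tbx3 in the Col1a1 class at E14.5 (-0.14) and the change of Tbx18 in the Cdh5 class (0.083), and with halved gates for Tbx18 in the Tnnt2 class from E10.5 to E12.5 (-0.16). In ungated barcodes with Tbx2, mitochondrial genes were lower, but with the mitochondrial ceilings mt-Co2 was at 0.064, mt-Nd1 at 0.10, mt-Nd4l at 0.24, mt-Nd2 at 0.056, mt-Atp6 at 0.029, mt-Co3 at 0.0152 and mt-Cytb at 0.10.

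The E10.5 class calls of Tbx3 in the Tnnt2 and Col1a1 classes (1.02 and 1.28) and of Tbx18 in the Col1a1 class were each lost without either E10.5 library.

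The number of genes called moved by over 1.5 times in these cases. Against UMI-matched barcodes, where fewer barcodes enter, it was 2006 for Tbx18 in the Tnnt2 class, 223 for Tbx18 and 5 for Tbx2 in the Col1a1 class, 278 for Tbx3 in the Cdh5 class, 138 for Tbx2 in the ungated class, and 11 for Tbx2 and 23 for Tbx3 in E10.5 Tnnt2 barcodes. By DESeq2 it was 1877 for Tbx18 in the Tnnt2 class, 195 in the Col1a1 class, 505 for Tbx3 in the Cdh5 class, and at E10.5 81, 1943 and 105 for Tbx1 in the Epcam, ungated and Cdh5 classes, 3342 and 106 for Tbx18 in the ungated and Upk3b classes, and 5 and 12 for Tbx2 and Tbx3 in the Tnnt2 class. With no filter on low counts it was 823, 127 and 747 for Tbx18, Tbx2 and Tbx3 in the Col1a1 class, 393 for Tbx18 in the heart Upk3b class, 744 for Tbx2 in the ungated class, and 696 and 1071 for Tbx1 in the Epcam and Cdh5 classes. With no replicate block it was 23 for Tbx2 in the Col1a1 class, 173 for Tbx18 in the heart Upk3b class, 468 for Tbx2 in the ungated class, 386 for Tbx1 in the Epcam class, and 14 and 43 for Tbx2 and Tbx3 in E10.5 Tnnt2 barcodes. Without the 5% of barcodes with the most UMIs it was 416 for Tbx1 in the Epcam class, 86 for Tbx2 in E10.5 Tnnt2 barcodes and 278 for Tbx3 in the Cdh5 class. The last used 3 libraries where the main comparison used 4, and the part of each change was not tested. With at least 2 UMIs of the gene it was 476 and 968 for Tbx1 in the Epcam and Cdh5 classes and 87 for Tbx2 in the ungated class. The count of 87 came from 3 libraries, against 6 in the main comparison, and the part of each change was not tested.

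With each library left out in turn, the counts ran from 1779 (without E14.5 replicate 1) to 3057 for Tbx2 in the Tnnt2 class, from 279 (without E14.5 replicate 1) to 474 for Tbx18, from 7 (without E14.5 replicate 2) to 18 for Tbx2 and from 190 (without E14.5 replicate 1) to 482 for Tbx3 in the Col1a1 class, from 17 (without E12.5 replicate 2) to 109 for Tbx18 in the Upk3b class, from 504 (without E16.5 replicate 1) to 780 for Tbx3 in the Cdh5 class and from 188 (without E16.5 replicate 1) to 327 for Tbx2 in the ungated class. E10.5 comparisons of barcodes could not be run with a library left out. Depth limits the rare cases: Tbx1 in the hearts rests on 4 to 11 Cdh5 barcodes per matrix.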
